A study of Mus musculus with 18 samples.

Results

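The comparison described here set MEFs (mouse embryonic fibroblasts) moved from Scm to Rcm for 12 h, called S-Rcm 12 h, against MEFs kept in Rcm. It covers 6 of the 18 RNA-seq libraries of the series, 3 in each group, chosen by the medium and time in their labels. Rcm is complete medium with R-FBS, the fetal bovine serum in which cells resisted ferroptosis, and Scm is complete medium with S-FBS, the serum in which they were sensitive to it. All libraries came from wild-type (WT) MEFs. The labels do not say how the line was derived or whether libraries of a group came from separate cultures, so that p values measure the spread between these libraries only.

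Both groups were harvested in the same serum, and the comparison asks which genes had not reached the level of steady Rcm after 12 h. Other groups of 3 libraries each serve as reference below: MEFs kept in Scm, where the exchanged cells started, S-Rcm 24 h, moved from Scm to Rcm for 24 h, and R-Scm 12 h, moved the opposite way for 12 h. The exchanged cells also received new medium, while the labels name no medium change at that time for steady Rcm. A change of serum and a change to new medium therefore cannot be told apart in this comparison.

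Total counts ran from 16739046 to 17897649 in S-Rcm 12 h and from 15037323 to 19787163 in Rcm. Rcm 3 stood apart from the other Rcm libraries. Its log2 CPM (counts scaled to library size) correlated at 0.982 with the S-Rcm 12 h libraries and at 0.980 with its own group, and mitochondrial genes took 1.96% of its counts against 3.13% and 3.28% in Rcm 1 and 2 and 1.81% to 2.35% in S-Rcm 12 h. Values without it are given below. Of 13 fibroblast markers 11 passed the filter on low counts, 0 of which differed between the groups by edgeR or DESeq2 (3 had an unadjusted p below 0.05 by edgeR), with a summed level of 8983 to 9895 CPM in S-Rcm 12 h and 11278 to 11754 CPM in Rcm, and Lum and Fap held at most 3 counts in each of the 6 libraries. Macrophage markers (2 of 9 tested) summed to 17.3 to 18.5 CPM in S-Rcm 12 h and 11.6 to 15.3 CPM in Rcm, with Adgre1 and Tyrobp at 0 counts in all 6 libraries. Endothelial, epithelial, skeletal muscle and adipocyte markers summed to 11.8 CPM or less in every library of both groups. In bulk RNA, fewer cells of a type and less RNA per cell cannot be told apart.

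Interferon-stimulated genes are switched on through the interferon receptors by factors that bind the interferon-stimulated response element, and encode antiviral proteins that fibroblasts make at a low tonic level. Enzymes of cholesterol synthesis are switched on by SREBP2 when sterols in the endoplasmic reticulum are low, and serum lipoproteins are a source of such sterols. NRF2 drives detoxifying enzymes such as NQO1 and glutathione transferases, and AP-1 drives matrix metalloproteinases in fibroblasts given new serum.

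Promoter sequences from RefSeq (build GRCm38.p6, 250 bases before to 50 after each gene start) are shown for 5 interferon-stimulated genes and for 3 metalloproteinase genes, because members of these groups stood below and above Rcm, respectively. Capitals mark a single match in each window to the core letters of the interferon-stimulated response element, GAAANNGAA, on either strand. Further matches, some of which overlap the marked match, are left unmarked in the windows of Ifit1, Isg15, Bst2 and Oas1a. Each sequence runs 5′ to 3′ on the strand of its gene.
Ifit1, chr19:34640781-34640837, plus strand, match 84 bases before the start and on the opposite strand: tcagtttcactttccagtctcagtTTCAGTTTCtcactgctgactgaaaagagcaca
Isg15, chr4:156200858-156200914, minus strand, match 72 bases before the start: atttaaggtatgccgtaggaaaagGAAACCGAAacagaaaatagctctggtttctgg
Bst2, chr8:71537564-71537620, minus strand, match 124 bases before the start: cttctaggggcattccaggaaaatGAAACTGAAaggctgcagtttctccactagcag
Oas1a, chr5:120907526-120907569, minus strand, match 20 bases before the start: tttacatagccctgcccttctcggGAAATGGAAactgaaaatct
Gbp2, chr3:142620581-142620637, plus strand, match 58 bases before the start and on the opposite strand: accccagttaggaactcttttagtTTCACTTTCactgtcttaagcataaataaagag

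In the metalloproteinase promoters capitals mark the AP-1 letters, TGANTCA.
Mmp13, chr9:7272455-7272509, plus strand, match 35 bases before the start: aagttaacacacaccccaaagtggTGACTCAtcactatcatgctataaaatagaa
Mmp3, chr9:7445752-7445806, plus strand, match 46 bases before the start: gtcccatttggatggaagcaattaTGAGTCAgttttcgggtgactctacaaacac
Mmp10, chr9:7502255-7502309, plus strand, match 63 bases before the start: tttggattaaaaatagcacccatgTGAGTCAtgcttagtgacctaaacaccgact

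GAAANNGAA was present in 19 of the 29 interferon-stimulated genes with a promoter in the table (65.5%), against 9.76% of all 27025 genes there. TGANTCA was present in 4 of 14 metalloproteinase and inhibitor genes (28.6%) against 8.97% of all genes. It was also present in 9 of the 29 interferon-stimulated genes (31%), in 27.5% of lower DEGs and in 13% of higher DEGs. The antioxidant response letters TGACNNNGC were present in 6 of 12 NRF2 targets (50%) and 28.6% of metalloproteinase and inhibitor genes against 14% of all genes, and the sterol regulatory letters CACCCCAC in 2 of 16 cholesterol synthesis genes (12.5%) against 3.3%. Those 2 genes, Acat2 and Hmgcs1, were not DEGs by edgeR, but DESeq2 called both as lower, on the 18 libraries and on the 2 groups. Of the 40 lower DEGs by edgeR with a promoter, 0 held these letters. A match describes the letters of the window and is not evidence of binding.

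Between S-Rcm 12 h and Rcm, 134 of the 15381 genes tested were DEGs (0.871%), called where the log2 fold change exceeded 0.58 in either direction and the quasi-likelihood test of edgeR gave an adjusted p under 0.05. Of these, 65 were higher in S-Rcm 12 h (0.423% of genes tested), by 0.59 to 3.28 on the log2 scale, and 69 were lower (0.449%), with log2 fold changes of -0.58 to -3.46. The lower genes were led by interferon-stimulated genes (20) and held 6 enzymes of cholesterol synthesis. The higher genes included the glutathione transferases Gsta1, Gsta2 and Gsta4 and the metalloproteinases Mmp3 and Mmp13. All 134 DEGs had libraries that did not overlap between the groups, which also held for 3109 of all genes tested (20.2%). An unadjusted p below 0.05 was reached by 2374 genes (15.4%), the share against which such counts are given below.

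**Figure D1:**
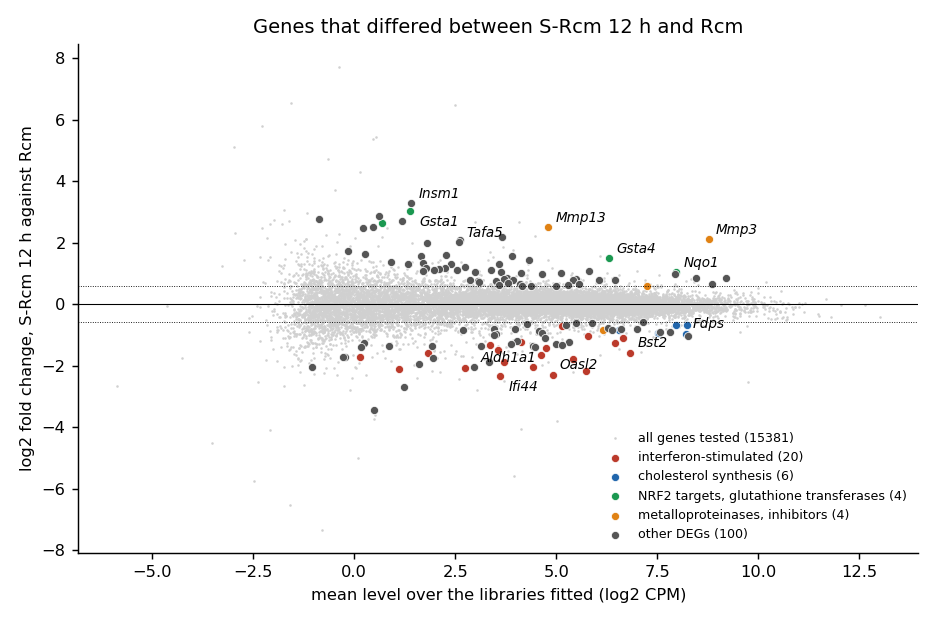
Each point is 1 gene, by its mean level in log2 CPM and its log2 fold change in S-Rcm 12 h against Rcm, with the 134 DEGs coloured by gene list and dotted lines at the fold threshold of 0.58. Red interferon-stimulated genes (20) and blue cholesterol synthesis genes (6) lie below 0, and Mmp13, Mmp3, Gsta1 and Insm1 lie above 2.

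The number of DEGs depended on single libraries. It was 44, 46 and 37 without S-Rcm 12 h 1, 2 and 3, 52 without Rcm 1, 27 without Rcm 2 and 209 without Rcm 3, with 26 to 101 of the 134 among them. Called in each of these 6 fits were 25 DEGs, 18 higher and 7 lower. The higher ones included Gsta1, Gsta2, Gsta4, Nqo1, Ptgr1, Tafa5, Insm1, Tubb3 and Stmn2, and the lower ones were Fdps and its copy Gm5873, Msmo1, Acat3, Aldh1a1, Aldh1a7 and Cbr2. None of the 134 changed sign in any of the fits. No gene of the interferon-stimulated list was among the 25, and these genes are described below as a group.

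Interferon-stimulated genes had the lowest median of all the gene lists. Of the 40 genes in the list, all were tested, 39 had a negative log2 fold change, 20 were DEGs and 37 had an unadjusted p below 0.05 (15.4% of all genes tested did), with a median of -1.47 against -0.00071 over all genes tested. In 38 of the 40 the libraries of the groups did not overlap (20.2% of all genes tested). The median lay between -1.52 and -1.43 whichever library was left out, while the number of DEGs among the 40 fell to 3, 2 and 1 without S-Rcm 12 h 1, 2 and 3, to 7 without Rcm 1 and to 0 without Rcm 2, where 36 of 40 still had an unadjusted p below 0.05 and the lowest adjusted p was 0.0516. Without Rcm 3 there were 15.

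Ifit1, which binds foreign RNA that lacks a host cap, stood at 74.4, 82.0 and 43.1 CPM in the Rcm libraries and at 18.7, 23.6 and 15.1 CPM in S-Rcm 12 h. The groups did not overlap, with Rcm 3 the lowest of its group (log2 fold change -1.79, SE 0.39, adjusted p = 0.0439). Without Rcm 3 the log2 fold change was -2.02, and the call was lost without each of the other 5 libraries (adjusted p = 0.182 without Rcm 2). Isg15, a ubiquitin-like modifier, stood at 31.5, 36.0 and 49.4 CPM in Rcm and at 16.6, 9.69 and 16.7 CPM in S-Rcm 12 h (log2 fold change -1.44, SE 0.29, adjusted p = 0.0287). Here Rcm 3 was the highest of its group. Bst2, which tethers budding virus to the cell surface, stood at 152, 173 and 185 CPM in Rcm against 61.1, 49.8 and 60.5 CPM in S-Rcm 12 h (log2 fold change -1.57, SE 0.29, adjusted p = 0.0176).

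Ifi44, an interferon-induced gene, had the lowest log2 fold change of the list (-2.34, adjusted p = 0.0159), at 23.9, 23.6 and 13.1 CPM in Rcm and 3.72, 4.26 and 3.92 CPM in S-Rcm 12 h. Sensors and effectors were both among the DEGs. Oasl2 and Oas1a, of the family that answers double-stranded RNA, had log2 fold changes of -2.29 and -2.07, and Usp18, which removes ISG15 from proteins and dampens the receptor, of -2.04. Rtp4, another interferon-induced gene, stood at 18.9, 21.4 and 21.1 CPM in Rcm and 5.97, 5.83 and 4.74 CPM in S-Rcm 12 h (log2 fold change -1.89, adjusted p = 0.00946). The call of Rtp4 was lost without S-Rcm 12 h 2 or 3 or Rcm 2. Those of Isg15, Bst2, Ifi44, Oasl2, Oas1a and Usp18 were each lost without any 1 S-Rcm 12 h library or Rcm 2. Without Rcm 1 those of Ifi44, Oasl2, Oas1a and Usp18 were lost as well, and without Rcm 3 those of Isg15, Oas1a and Usp18. Over all alternatives their adjusted p reached at most 0.0863 (Ifi44) to 0.193 (Usp18). Outside the list, and picked after their values were seen, Gbp2b, Gbp9, Tgtp1, Ifi203, Ifi204, Isg20 and Uba7, all known as interferon-induced genes, were also DEGs with log2 fold changes of -0.93 to -1.88. Families such as Oas, Gbp and Ifit hold close copies, among which the split of reads is uncertain.

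Members that did not pass included Oasl1 and Irf7. Oasl1, a relative of Oasl2 that binds the Irf7 messenger, was the one member with a positive value, at 0.748, 1.60 and 1.02 CPM in Rcm and 2.57, 1.85 and 1.23 CPM in S-Rcm 12 h, with groups that overlapped (log2 fold change 0.76, adjusted p = 0.333). Irf7 itself, the factor that amplifies type I interferon, stood at 9.98, 10.4 and 12.8 CPM in Rcm and 5.70, 6.0 and 6.26 CPM in S-Rcm 12 h without overlap, but was not a DEG (log2 fold change -0.88, SE 0.30, adjusted p = 0.171). It was called on the 2 groups alone by DESeq2 and by edgeR with or without a replicate block, and not by DESeq2 on the 18 libraries.

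At 12 h the list lay between steady Scm and steady Rcm. Averaged over its 40 genes, the log2 CPM was 1.55 to 1.57 in the Scm libraries, 2.53 to 2.77 in S-Rcm 12 h and 3.88 to 4.21 in Rcm, and these ranges did not overlap. Side by side, the median log2 fold change was -1.47 against Rcm and 1.16 against Scm, and steady Rcm against steady Scm had a median of 2.71. These comparisons share libraries. Ifit1, for example, was at 1.85 in S-Rcm 12 h against Scm (adjusted p = 0.0509).

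**Figure D2:**
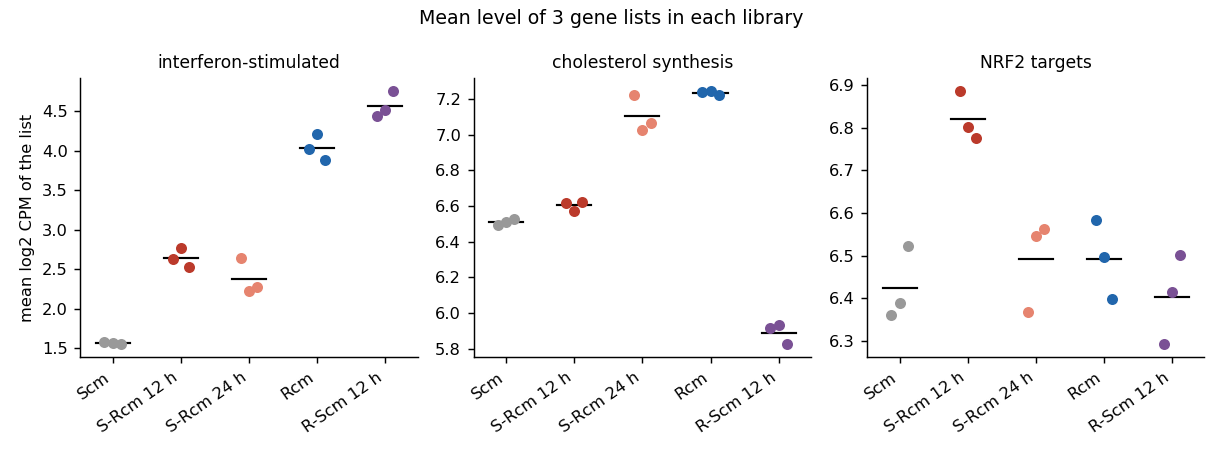
Mean levels in log2 CPM of the interferon-stimulated (40 genes), cholesterol synthesis (21) and NRF2 target (15) lists are plotted for every library of 5 groups, with a line at the group mean. S-Rcm 12 h lies between Scm and Rcm for the interferon-stimulated list (2.53 to 2.77), close to Scm for cholesterol synthesis (6.57 to 6.62) and above every other group for NRF2 targets (6.77 to 6.89).

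The cholesterol synthesis enzymes were below steady Rcm and close to the level in Scm. All 21 genes of the list were tested and 20 had a negative log2 fold change, with a median of -0.67. Lower DEGs numbered 6 (Fdps, Idi1, Msmo1, Nsdhl, Sqle and Cyp51), against 0.449% of all genes tested. An unadjusted p below 0.05 was reached by 18 (15.4% of all genes tested did). The libraries of the groups did not overlap for 17 of the 21 (20.2% of all genes tested). Leaving out 1 library kept the median between -0.71 and -0.62, and the DEGs numbered 2 without S-Rcm 12 h 3 or Rcm 2, 3 without S-Rcm 12 h 1 or Rcm 1, 4 without S-Rcm 12 h 2 and 6 without Rcm 3.

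Fdps, which makes farnesyl diphosphate for sterols and protein prenylation, stood at 384, 392 and 389 CPM in Rcm and at 197, 193 and 210 CPM in S-Rcm 12 h. Each S-Rcm 12 h library was below every Rcm library, 1.94-fold in the fit (log2 fold change -0.96, SE 0.15, adjusted p = 0.00574), and the 3 Scm libraries stood at 188, 198 and 180 CPM. Fdps shares near-identical sequence with the processed pseudogenes Gm3571 and Gm5873, themselves DEGs, and the split of reads among them is uncertain. The counts of the 3 summed gave a log2 fold change of -0.95 (adjusted p = 0.00405). Msmo1, a C4-methyl sterol oxidase, stood at 291, 255 and 181 CPM in Rcm and at 127, 129 and 126 CPM in S-Rcm 12 h (log2 fold change -0.93, SE 0.15, adjusted p = 0.00634), with Rcm 3 again the lowest of its group.

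Idi1, the isomerase ahead of Fdps, and Nsdhl, a sterol dehydrogenase, had log2 fold changes of -0.94 (adjusted p = 0.0165) and -0.85 (adjusted p = 0.00861), with calls lost without S-Rcm 12 h 1 or 3 or Rcm 1 or 2 and without S-Rcm 12 h 2 or 3 or Rcm 2, respectively. Sqle, which makes squalene epoxide, and Cyp51, lanosterol demethylase, were both at -0.67 (adjusted p = 0.0342 and 0.0418), and the call of Cyp51 was lost without any 1 of the 6 libraries and that of Sqle without S-Rcm 12 h 1 or 3 or Rcm 1 or 2. Ebp, a sterol isomerase, was the one member with a positive value (0.08, adjusted p = 0.824). Acat3, an acetyl-CoA acetyltransferase outside the list and a close copy of Acat2, stood at 38.2, 34.9 and 34.0 CPM in Rcm and 16.6, 15.4 and 18.6 CPM in S-Rcm 12 h (log2 fold change -1.08, adjusted p = 0.00315).

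The cholesterol list had a mean log2 CPM of 6.49 to 6.53 in Scm, 6.57 to 6.62 in S-Rcm 12 h and 7.22 to 7.24 in Rcm. The median log2 fold change of S-Rcm 12 h against Scm was 0.10 and that of Rcm against Scm 0.76, from comparisons that share libraries.

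Of 17 genes of SREBP feedback and sterol uptake 2 were DEGs, both lower (0.449% of all genes tested were), and the median was -0.11. DESeq2 called 4 of the 17 on the 18 libraries and 5 on the 2 groups, all lower. Mbtps2, the site-2 protease that frees SREBP from the membrane, was one of the 2 edgeR DEGs at -0.60 (adjusted p = 0.032), a call lost when any 1 library other than Rcm 3 was left out. Insig1, an SREBP target that holds SREBP in the endoplasmic reticulum, was at -0.66 (adjusted p = 0.106). It was called by DESeq2 on the 18 libraries, and on the 2 groups by DESeq2 and by edgeR with or without a replicate block. The SREBP genes themselves were at 0.12 for Srebf1 (adjusted p = 0.611) and -0.12 for Srebf2 (adjusted p = 0.71).

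Of 22 genes of fatty acid synthesis and desaturation 21 were tested, 0 were DEGs by edgeR and 1 by DESeq2 on the 18 libraries (Acsl3), 18 had a negative value and 11 an unadjusted p below 0.05, with a median of -0.34. Scd1, the stearoyl-CoA desaturase, stood at 439, 444 and 409 CPM in Rcm and at 310, 316 and 285 CPM in S-Rcm 12 h. Its groups did not overlap, but the change did not pass (log2 fold change -0.50, SE 0.19, adjusted p = 0.206). Over the edgeR and DESeq2 alternatives the log2 fold change was -0.53 to -0.46, short of the fold threshold, with adjusted p of 4.42e-05 to 0.481. Fasn, fatty acid synthase, was at -0.41 (adjusted p = 0.0985). Acly, which makes cytosolic acetyl-CoA, passed the adjusted p (0.0372) with a log2 fold change of -0.39, below the fold threshold.

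**Figure D3:**
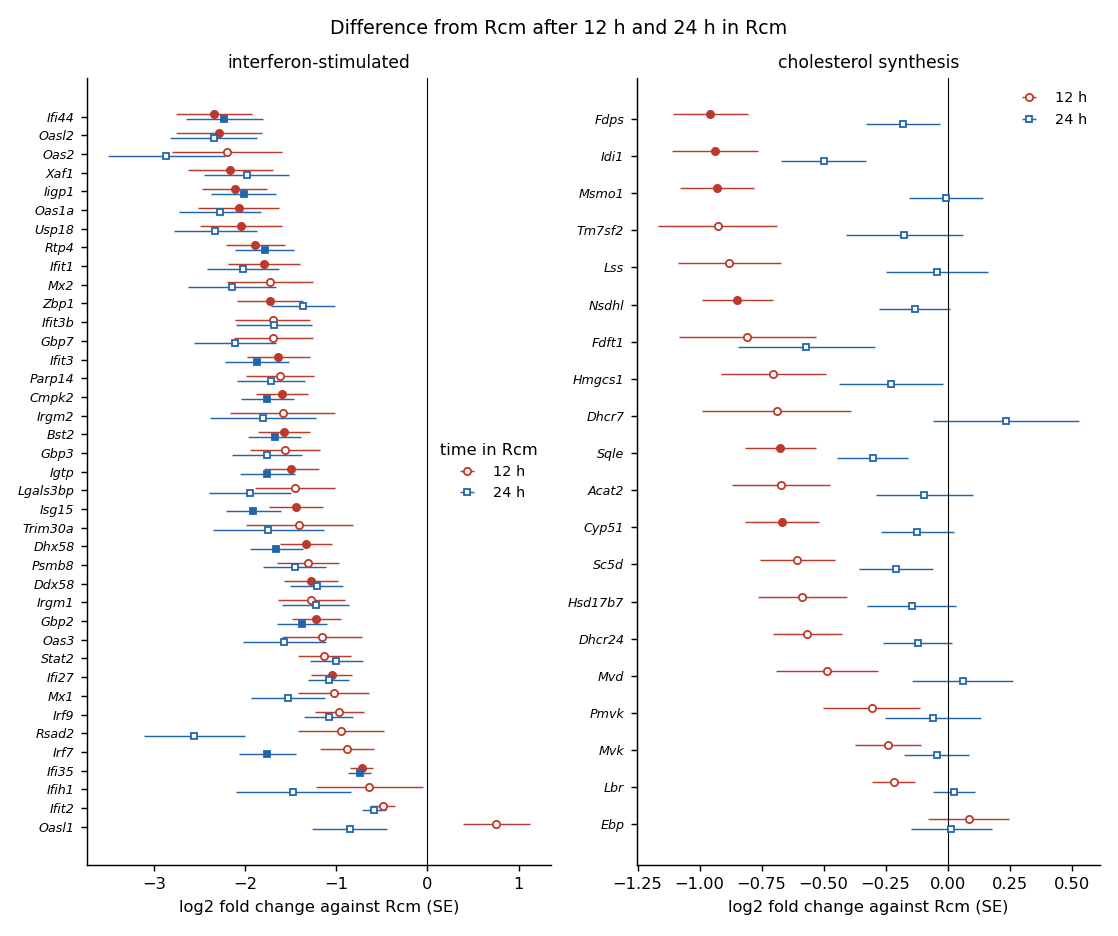
The log2 fold change against Rcm, with its SE, is plotted for 39 of the 40 interferon-stimulated (left) and 20 of the 21 cholesterol synthesis genes (right) after 12 h (red circles) and 24 h (blue squares) in Rcm, with DEGs filled. Interferon-stimulated genes other than Oasl1 at 12 h were below 0 at both times (medians over the whole list -1.47 and -1.75). Cholesterol synthesis genes other than Ebp were below 0 at 12 h (median -0.67), and at 24 h 17 of the whole list of 21 were (median -0.12).

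Gsta4, Nqo1 and Gsta1, enzymes of detoxification, were above both steady media at 12 h. Gsta4, a glutathione transferase that acts on the lipid peroxidation product 4-hydroxynonenal, stood at 38.7, 41.8 and 43.8 CPM in Rcm and 119, 109 and 125 CPM in S-Rcm 12 h. It was 2.84-fold higher and did not overlap Rcm (log2 fold change 1.51, SE 0.10, adjusted p = 1.22e-06), and the Scm libraries stood at 32.8, 38.5 and 35.9 CPM (log2 fold change against Scm 1.72, adjusted p = 1.81e-07). Nqo1, the quinone reductase and a standard NRF2 target, stood at 160, 172 and 156 CPM in Rcm and 344, 330 and 337 CPM in S-Rcm 12 h (log2 fold change 1.05, SE 0.11, adjusted p = 0.000168). Its level in Scm was 134, 150 and 141 CPM (log2 fold change against Scm 1.25, adjusted p = 1.91e-05).

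Gsta1 stood at 0.312, 0.599 and 0.762 CPM in Rcm and at 4.27, 3.81 and 5.85 CPM in S-Rcm 12 h (log2 fold change 3.02, SE 0.33, adjusted p = 0.000198), and differed from Scm by 1.79 (adjusted p = 0.00668). Gsta2 and Gm3776 had log2 fold changes of 2.63 and 2.87, but these 3 genes are near-identical neighbours on chromosome 9 and the split of reads among them is uncertain. Their summed counts gave a log2 fold change of 2.88 (adjusted p = 0.0001). Ptgr1, which reduces reactive lipid aldehydes and prostaglandins, was higher by 1.09 (adjusted p = 0.000644), and Akr1b3, an aldose reductase, by 0.66 (adjusted p = 0.0287, a call lost when any 1 library other than Rcm 3 was left out).

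Of 15 NRF2 targets 2 were DEGs (Gsta4 and Nqo1), both higher, against 0.423% of all genes tested. In this list 10 were positive and 8 had an unadjusted p below 0.05 (15.4% of all genes tested did). The median was 0.32, which was 0.39 without Rcm 3. The mean log2 CPM of the list was 6.77 to 6.89 in S-Rcm 12 h, 6.40 to 6.58 in Rcm and 6.36 to 6.52 in Scm. Of 22 glutathione transferases, a list chosen after their values were seen, 14 were tested and 3 were higher (Gsta1, Gsta2 and Gsta4), with a median of 0.10. The share of higher DEGs over all genes tested was 0.423%, and DESeq2 also called Gsto1 as higher.

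**Figure D4:**
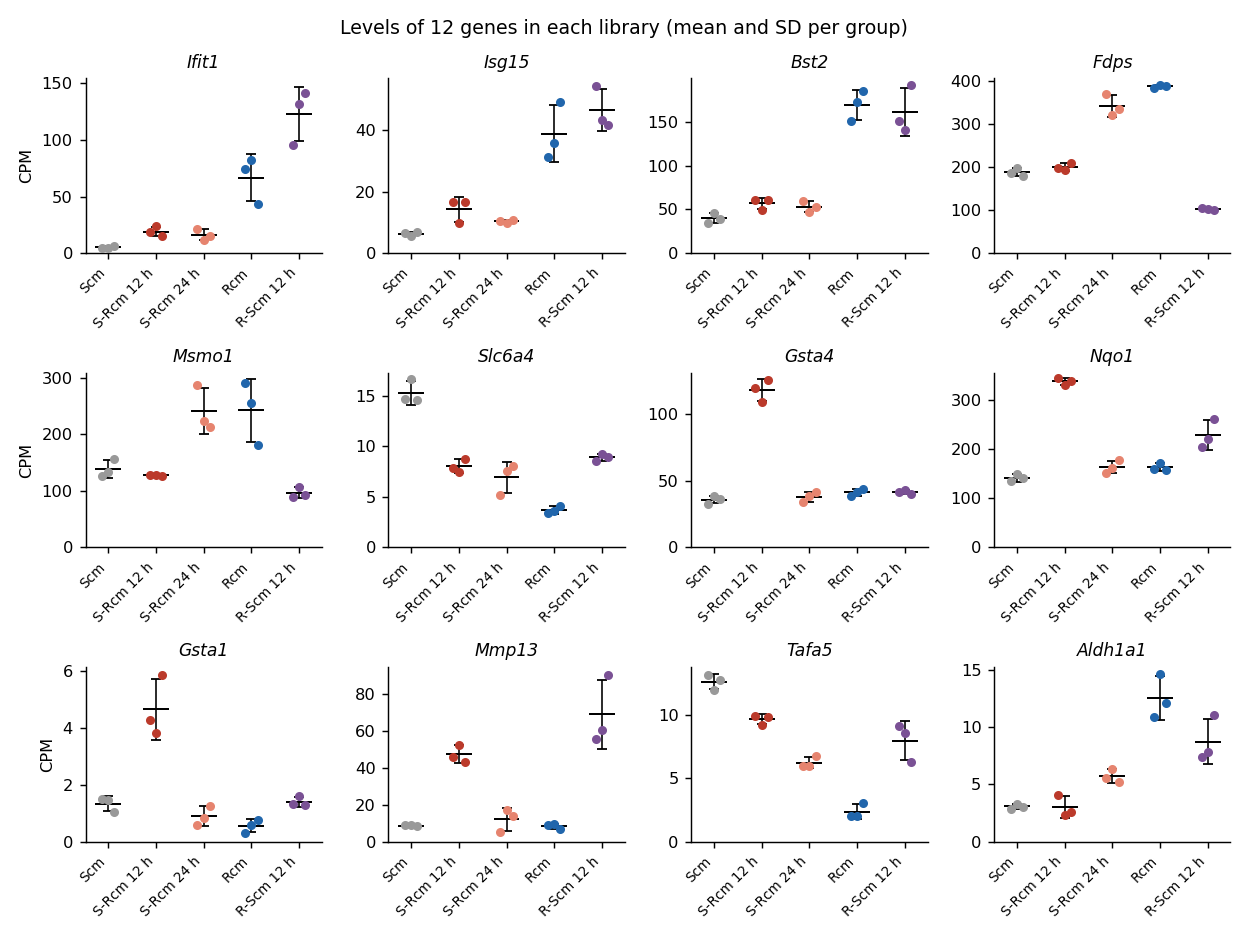
Levels in CPM of 12 genes are plotted for every library of 5 groups, with the group mean and SD. For Gsta4, Nqo1, Gsta1 and Mmp13 the S-Rcm 12 h libraries lie above those of Scm, S-Rcm 24 h and Rcm, for Ifit1, Isg15 and Bst2 they lie below Rcm, and for Fdps and Aldh1a1 they lie at the level of Scm.

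Of 21 matrix metalloproteinases and inhibitors 18 were tested, 3 were higher (Mmp13, Mmp3 and Timp1) and 1 was lower (Adamts1), with a median of 0.17. Mmp13, a collagenase, stood at 8.86, 9.38 and 6.76 CPM in Rcm and 46.1, 52.6 and 43.1 CPM in S-Rcm 12 h (5.69-fold, log2 fold change 2.51, SE 0.48, adjusted p = 0.0242). Mmp3, stromelysin-1, stood at 163, 178 and 153 CPM in Rcm and 686, 738 and 708 CPM in S-Rcm 12 h (log2 fold change 2.11, SE 0.34, adjusted p = 0.00906). Each S-Rcm 12 h library was above every Rcm and Scm library for both genes, and their neighbour Mmp10 was at 1.77 without passing the adjusted p (0.0956), though it was called by DESeq2 on the 18 libraries and by edgeR and DESeq2 on the 2 groups, with and without a replicate block for edgeR. The call of Mmp13 was lost without any 1 of the 6 libraries (adjusted p up to 0.116) and that of Mmp3 without Rcm 1 or Rcm 2, while their log2 fold changes stayed between 2.07 and 2.60. Timp1, an inhibitor of these proteases, was higher by 0.59 (adjusted p = 0.0499), and Adamts1, which cleaves proteoglycans, was lower at -0.85 (adjusted p = 0.0418), with calls lost when any 1 library other than Rcm 3 (Timp1) or any 1 of the 6 (Adamts1) was left out.

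Insm1, Cck, Syt7 and Tubb3 were among the 65 DEGs higher than in steady Rcm. Against Scm, 16 of the 65 were also higher DEGs (0.598% of all genes tested were) and 2 were lower ones (0.26%). Insm1, a zinc finger factor of neuroendocrine cells, stood at 0.374, 0.532 and 0.559 CPM in Rcm and 4.55, 4.31 and 5.62 CPM in S-Rcm 12 h, the largest log2 fold change of all DEGs (3.28, SE 0.49, adjusted p = 0.0038). Cck, which encodes cholecystokinin, was higher by 2.52 (adjusted p = 0.00422) but reached 3.34 CPM at most. Syt7, a calcium sensor of secretory vesicles, stood at 4.68, 4.39 and 4.47 CPM in Rcm and 27.8, 24.0 and 10.1 CPM in S-Rcm 12 h (log2 fold change 2.19, adjusted p = 0.00315), with S-Rcm 12 h 3 far below the other two. It overlaps a gene on the opposite strand, with which reads may be shared. Tubb3, a neuronal tubulin, stood at 7.36, 6.19 and 9.25 CPM in Rcm and 23.3, 19.3 and 24.6 CPM in S-Rcm 12 h (log2 fold change 1.55, adjusted p = 0.000692).

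Tafa5, a small secreted protein, and Slc6a4 lay between the levels of steady Rcm and Scm. Tafa5 stood at 2.0, 2.06 and 3.05 CPM in Rcm, 9.91, 9.19 and 9.83 CPM in S-Rcm 12 h and 13.2, 12.0 and 12.7 CPM in Scm, so that S-Rcm 12 h lay above every Rcm library and below every Scm library (log2 fold change 2.01, SE 0.18, adjusted p = 2.69e-05). Against Scm the log2 fold change was -0.39 (adjusted p = 0.278). Slc6a4, the serotonin transporter, stood at 3.37, 3.59 and 4.11 CPM in Rcm, 7.89, 7.45 and 8.78 CPM in S-Rcm 12 h and 14.7, 16.6 and 14.6 CPM in Scm, and differed from both (log2 fold change 1.12 against Rcm, adjusted p = 0.00276, and -0.93 against Scm, adjusted p = 0.00594). Stmn2, a microtubule regulator, was higher than in Rcm by 0.79 (adjusted p = 0.000692). Hey1, a Notch target, was higher by 1.18 (adjusted p = 0.0225), a call lost without S-Rcm 12 h 1 or 3 or Rcm 1 or 2. Notum, a secreted Wnt inhibitor, was higher by 1.43 (adjusted p = 0.00748, lost without Rcm 2) and its opposite-strand neighbour Notumos by 2.01, and without knowledge of strand their reads cannot be separated.

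Among 8 neural markers 5 were tested and Tubb3 was the 1 DEG. Their summed level was 147 to 164 CPM in S-Rcm 12 h and 110 to 129 CPM in Rcm, with Sox10 at 0 counts in all 6 libraries. The summed level in Scm was 144 to 147 CPM. In S-Rcm 12 h against Scm 0 of the 5 tested markers were DEGs, with log2 fold changes of at most 0.51. The part of other cells in the higher level of Tubb3 was not tested.

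Aldh1a1, which makes retinoic acid, was lower and at its level in Scm. It stood at 10.9, 14.6 and 12.1 CPM in Rcm, 4.11, 2.35 and 2.63 CPM in S-Rcm 12 h and 2.89, 3.33 and 3.02 CPM in Scm (log2 fold change -2.04, SE 0.24, adjusted p = 0.000576). Aldh1a7, a close copy on the same chromosome with which reads may be shared, was lower at -0.997 (adjusted p = 0.000872). Cyp26b1, which degrades retinoic acid, was higher by 0.76 (adjusted p = 0.0479), so that of 10 retinoid-responsive genes tested 1 was higher and 1 lower.

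Other lists held 1 or 2 DEGs each. Igfbp3, a carrier of insulin-like growth factors, was higher by 0.99 (adjusted p = 0.00658), the 1 DEG of 15 tested in the IGF system. Hspa5, the chaperone BiP of the endoplasmic reticulum, stood at 437, 429 and 393 CPM in Rcm and 734, 773 and 769 CPM in S-Rcm 12 h (log2 fold change 0.85, adjusted p = 0.0175), the 1 DEG among 20 chaperones and folding enzymes, a list chosen after values were seen with a median of 0.21. Id4 and Atoh8 (0.61 and 0.64) were the 2 higher of 19 BMP and TGF-beta readouts, and Nkd2, a Wnt antagonist, was lower at -0.58 beside Notum among 16 Wnt genes.

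Selenow, a selenoprotein whose messenger follows selenium supply, was lower at -0.81 (adjusted p = 0.0294), the 1 DEG of 19 selenoproteins with a median of -0.08, and Slc7a5, a carrier of large neutral amino acids, was lower at -0.59 (adjusted p = 0.0358), the 1 DEG of 18 ATF4 targets with a median of -0.12. The calls of Cyp26b1, Id4, Selenow and Slc7a5 were lost without any 1 of the 6 libraries, those of Hspa5 and Atoh8 without any but Rcm 3, that of Nkd2 without any but Rcm 1 and that of Igfbp3 without Rcm 2. DESeq2 did not call Slc7a5 or Nkd2. On the 18 libraries it called Ltbp2, Wnt10a and Sdf2l1 as further higher genes of the BMP, Wnt and chaperone lists. It also called Asns and Nupr1 of the ATF4 targets, 1 higher and 1 lower.

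Ferroptosis regulators did not yield a DEG. Of 24 genes 22 were tested, 0 were called by edgeR or DESeq2, 3 had an unadjusted p below 0.05 by edgeR, against 15.4% of all genes tested, and the median was -0.03. With 1 library left out the median ran from -0.0699 to 0.0258, above 0 without S-Rcm 12 h 2, Rcm 2 or Rcm 3. Gpx4, the peroxidase that reduces lipid hydroperoxides, stood at 128, 129 and 125 CPM in Rcm and 125, 109 and 127 CPM in S-Rcm 12 h (log2 fold change -0.08, SE 0.08, adjusted p = 0.666). Slc7a11, the cystine carrier, stood at 50.9, 53.8 and 17.5 CPM in Rcm and 33.5, 33.2 and 22.5 CPM in S-Rcm 12 h. Its log2 fold change of -0.45 had an SE of 0.39 and became -0.81 without Rcm 3, the low library, and -0.20 without Rcm 2. Acsl4, which feeds polyunsaturated fatty acids to phospholipids, was at -0.18 (adjusted p = 0.517). Apoh had 1 to 7 counts in each of the 6 libraries and was not tested.

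With 0 DEGs each by edgeR, the other lists had medians of -0.20 for 26 collagens and matrix genes (4 with an unadjusted p below 0.05), -0.06 for 29 SRF and YAP targets (6), 0.17 for 20 chemokines and acute-phase genes (6), -0.23 for 17 clock genes (2), 0.07 for 30 genes of replication and mitosis (3), 0.04 for 27 of glycolysis (4), 0.06 for 21 PPAR targets (3), 0.04 for 12 glucocorticoid-responsive genes (3) and 0.16 for 15 p53 targets (1). DESeq2 on the 18 libraries called 2 lower SRF and YAP targets (Acta2 and Mylk) and 2 higher genes of the chemokine list (Cxcl16 and Nfkbia), and 0 in the other lists of this paragraph.

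After 24 h in Rcm, a comparison that shares the Rcm libraries, S-Rcm 24 h against Rcm gave 34 DEGs (0.221%), and 0 without Rcm 2 (762 genes with an unadjusted p below 0.05 by edgeR) or without S-Rcm 24 h 3 (880), 8 without S-Rcm 24 h 2, 10 without Rcm 1 and 22 without Rcm 3. DESeq2 on the 18 libraries called 103. Of the 40 interferon-stimulated genes 12 were still lower than in Rcm (0.156% of all genes tested were), and their median was -1.75, beside -1.47 at 12 h and -0.18 for 24 h against 12 h. The mean log2 CPM of the list was 2.22 to 2.64 in S-Rcm 24 h, overlapping S-Rcm 12 h and below every Rcm library. Ifit1 stood at 21.4, 12.0 and 15.6 CPM, and Bst2, at 59.8, 47.5 and 52.4 CPM, differed from Rcm by -1.67 on the log2 scale (adjusted p = 0.0239).

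At 24 h the cholesterol list had a median of -0.12 against Rcm, with 17 of 21 genes negative and 0 DEGs. Its mean log2 CPM was 7.02 to 7.22, with the highest library (7.220) just below the lowest Rcm library (7.224). Fdps stood at 370, 322 and 336 CPM, higher than at 12 h by 0.78 (adjusted p = 0.0439), and Msmo1 at 287, 224 and 213 CPM, higher by 0.92 (adjusted p = 0.0167). Against Rcm neither passed at 24 h (log2 fold changes -0.18 and -0.01, adjusted p = 0.803 and 0.994). Each 24 h library was still below every Rcm library for Fdps, while Msmo1 overlapped Rcm.

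Gsta4 and Nqo1, above both steady media at 12 h, overlapped Rcm at 24 h. Gsta4 was at 33.8, 38.4 and 41.1 CPM (log2 fold change of 24 h against 12 h -1.64, adjusted p = 3.56e-07) and Nqo1 at 151, 162 and 177 CPM (-1.05, adjusted p = 0.000258). Mmp13, at 5.06, 17 and 14.2 CPM, also overlapped Rcm, though the difference between 24 h and 12 h did not pass (-1.97, adjusted p = 0.122). Tafa5 remained above Rcm at 5.96, 5.98 and 6.77 CPM (log2 fold change 1.38, adjusted p = 0.00831), as did Stmn2 (0.67, adjusted p = 0.013) and Slc6a4 (0.91, adjusted p = 0.0239). Aldh1a1, at 5.54, 6.37 and 5.19 CPM, was below each Rcm library with an adjusted p of 0.0552.

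The opposite exchange, R-Scm 12 h against steady Scm, shares no library with the comparison above and also compares exchanged cells with cells kept in the same serum. It gave 676 DEGs (4.4% of genes tested), 477 higher (3.1%) and 199 lower (1.29%). These numbered 390, 422 and 437 without Scm 1, 2 and 3 and 353 without R-Scm 12 h 3. Of the 65 genes higher in S-Rcm 12 h, 10 were higher in R-Scm 12 h (15.4% of the 65 and 2.1% of its 477 higher DEGs) and 5 were lower (7.69% and 2.51% of its 199 lower DEGs). Of the 69 lower genes 39 were higher in R-Scm 12 h (56.5% and 8.18%), 20 of them in the interferon-stimulated list, and 9 were lower (13% and 4.52%). Steady Rcm against steady Scm, which shares libraries with both comparisons, had 53 of the 69 as higher DEGs (1.67% of all genes tested). It had 25 of the 65 as lower DEGs (0.631%). A gene near its starting level after both exchanges has opposite signs in them wherever steady Rcm and Scm differ. A test of the difference between the exchanges called 472 genes (3.07%). It called 1598 without Rcm 3, 258 without Rcm 2 and 274 without Rcm 1, and between 273 and 313 without S-Rcm 12 h 1, any 1 Scm library or R-Scm 12 h 3.

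**Figure D5:**
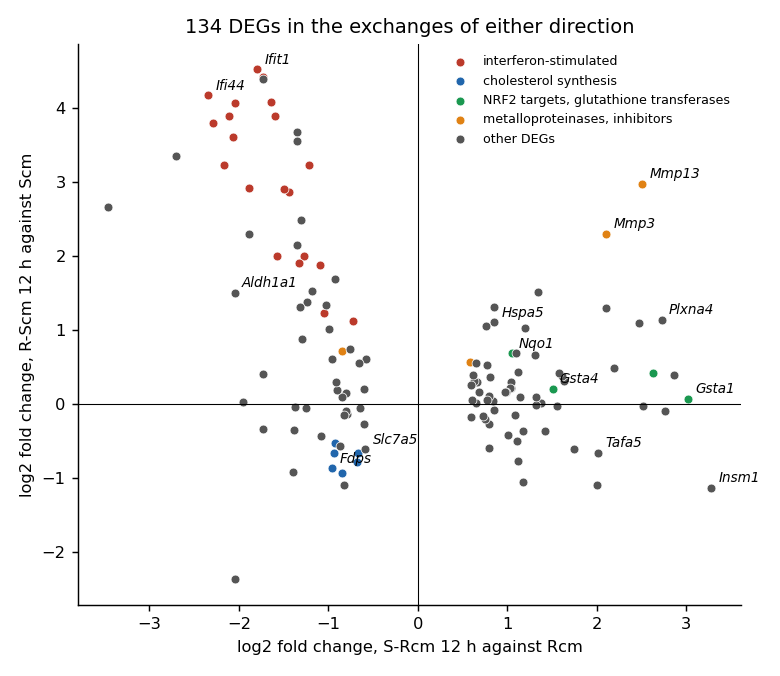
Each point is 1 of the 134 DEGs, by its log2 fold change in S-Rcm 12 h against Rcm and in R-Scm 12 h against Scm. Interferon-stimulated genes lie at the upper left (20 lower in the first and higher in the second), cholesterol synthesis genes at the lower left and Mmp13 and Mmp3 at the upper right.

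Mmp13 and Mmp3 were higher than in the steady medium after either exchange. Mmp13 had a log2 fold change of 2.98 in R-Scm 12 h against Scm (adjusted p = 0.00214) and a difference between the exchanges of -0.47 (adjusted p = 0.691). Mmp3 was at 2.30 there (adjusted p = 0.0011), Hspa5 at 1.11 (adjusted p = 0.000579) and Spp1, which encodes osteopontin, at 1.32 (adjusted p = 0.000115) beside 0.85 in S-Rcm 12 h against Rcm (adjusted p = 0.0169, lost without S-Rcm 12 h 1 or 2 or Rcm 1 or 2). Slc7a5 was lower after both, at -0.59 and -0.61.

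The cholesterol synthesis genes were below the steady medium after either exchange, with medians of -0.67 and -0.66. Fdps was at -0.96 and -0.87 with a difference of -0.09 (adjusted p = 0.824).

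The interferon-stimulated list lay on opposite sides. Its median was -1.47 in S-Rcm 12 h against Rcm and 3.27 in R-Scm 12 h against Scm, and all 40 genes passed the test of the difference, with a median difference of -4.83. Steady Rcm against steady Scm had a median of 2.71, with 38 of the 40 as higher DEGs (1.67% of all genes tested were). The test of the difference contains this steady difference, so that its calls are not separate from it. Among the higher genes, Gsta4 was at 1.51 and 0.21 (difference 1.30, adjusted p = 5.79e-05), while Nqo1 was at 1.05 and 0.69 with a difference that did not pass (0.36, adjusted p = 0.176).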

How the data were processed

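Bulk RNA-seq of MEFs was analysed from gene counts of 18 libraries in 6 groups of 3, with 14534906 to 20313715 counts each. RNA was extracted by the authors with a column kit (RNeasy mini) and sequenced from both ends, and they aligned the reads to GRCm38 with HISAT2 and deposited unscaled counts. The counting tool, strand setting and treatment of reads that map to several places are not given in the sources used here, so that overlapping and antisense genes and near-identical copies are uncertain. The labels give no sequencing batch or date, and 0 columns of the table were left out.

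Of 55487 genes, 40106 were removed by filterByExpr of edgeR 4.0.16 (R 4.3.3, limma 3.58.1) and 15381 were tested. Counts were scaled by TMM (factors 0.963 to 1.03), 1 quasi-likelihood model with robust estimation was fitted over the 6 groups (common dispersion 0.0298), and p values were adjusted by Benjamini-Hochberg over all genes tested. DEGs had an adjusted p under 0.05 and a log2 fold change beyond 0.58, the threshold the study used. Values per library are CPM on TMM-scaled library sizes, averaged on the log2 scale with a prior count of 2. A level of 3 counts or fewer in a library was taken as the detection limit, and such limits cover counting error only.

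The members and gene lists were chosen with earlier results of these data known, and the glutathione transferase and chaperone lists and the summed copies after their values were seen. Genes were named by 3 rules: the 15 largest rises and 15 largest falls among DEGs that averaged 1 CPM or more over the 6 libraries and did not overlap between groups, every DEG in a list, and all cholesterol synthesis genes with Srebf1, Srebf2, Insig1, Scd1, Scd2, Fasn, Gpx4, Slc7a11, Acsl4, Acsl3 and Apoh. Values are printed for those on which a result turns, and some genes that these rules name are not reported here, though list counts and medians include them. Gene positions come from GENCODE M21 on GRCm38 and promoters from RefSeq on GRCm38.p6.

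The test of the difference between the exchanges was a contrast in the same model. Scripts were tested on simulated data. Alternatives were RLE and upper-quartile scaling, no filter on low counts, a minimum of 10 counts in each library, DESeq2 1.42.0, fits of the 2 groups alone, a replicate block, an adjusted p under 0.01 and each library left out in turn. Figures were drawn with matplotlib 3.10.9 in Python 3.11.15.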

Additional observations from a re-analysis of the deposited data

Results flagged for a closer look

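The change in S-Rcm 12 h against Rcm was compared with that in R-Scm 12 h against Scm by a test of the difference between the log2 fold changes, in the same edgeR model and adjusted over all genes tested. The 2 comparisons share no library. Of the 73 genes with values computed for the text, 36 passed, with adjusted p from 1.02e-05 to 0.0469, against 3.07% of all genes tested. Most of the 73 were chosen as DEGs of the first comparison, so that their count is a description, and the 36 are listed for having passed alone. Differences are given as the first minus the second, on the log2 scale. By the way the contrast is built, they contain the difference between steady Rcm and steady Scm for every gene, and are not separate from it.

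Among interferon-stimulated genes the differences were negative. The difference was -6.32 for Ifit1, -5.72 for Ifit3, -6.52 for Ifi44, -6.09 for Oasl2, -4.31 for Isg15, -3.58 for Bst2 and -6.11 for Usp18. It was -6.02 for Iigp1 and -4.45 for Gbp2, GTPases of the cell's own defence, and -5.68 for Oas1a, -6.06 for Oas1g, -5.40 for Xaf1 and -4.82 for Rtp4. For Irf7 it was -3.37, and for Oasl1, whose own change against Rcm did not pass, -2.53. Gm43302, which overlaps Gbp genes, had -6.12, but its Scm libraries held 3 counts or fewer, so that this fitted value depends on the prior count.

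Of the genes higher in S-Rcm 12 h than in Rcm, Gsta1 had a difference of 2.95, Gsta4 of 1.30, Tafa5 of 2.67, Slc6a4 of 1.89, Stmn2 of 1.38 and Tubb3 of 1.58. The difference was 1.23 for Ptprn, a protein of secretory granules, 1.55 for Penk, which encodes proenkephalin, 2.23 for Hey1, 1.80 for Notum, 3.10 for Notumos, 4.41 for Insm1, 2.54 for Cck and 1.71 for Syt7. Of the genes lower than in Rcm, Aldh1a1 had -3.55 and Aldh1a7 -2.02, Adamts1 -1.56, Nkd2 -1.20, Selenow -0.96 and Mbtps2 -0.80.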

How the results depend on the processing

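In S-Rcm 12 h against Rcm, 27 to 209 DEGs were called when 1 library was left out (19 to 99 higher and 8 to 110 lower). DESeq2 called 301 on the 18 libraries (139 higher, 162 lower) and 336 on the 2 groups (144 and 192), edgeR on the 2 groups called 110 lower genes, and an adjusted p under 0.01 left 34 (23 and 11). RLE scaling gave 127, upper-quartile scaling 132, no fold threshold 170, a minimum of 10 counts in each library 110 and testing of all genes 99. Of the 134 DEGs, 20 were called in every alternative fit at an adjusted p under 0.05, 13 higher and 7 lower. With the minimum of 10 counts set aside these were 25, 18 higher and 7 lower. That minimum left Gsta1, Gsta2, Insm1, Cck and Plxna4 untested. Cholesterol synthesis DEGs numbered 12 and 13 with DESeq2 on 18 libraries and on 2 groups, 11 with edgeR on 2 groups and 2 to 6 with 1 library left out (median -0.71 to -0.62). Interferon-stimulated DEGs numbered 8 without a filter, 31 with DESeq2 on 2 groups and 0 to 15 with 1 library left out (median -1.52 to -1.43). Leaving out 1 library gave 353 to 770 DEGs in R-Scm 12 h against Scm, 0 to 38 in S-Rcm 24 h against Rcm (DESeq2 103) and 258 to 1598 differences between the exchanges (DESeq2 860). The replicate block gave 125 DEGs on 18 libraries and 238 on 2 groups (150 lower), with 13 of cholesterol synthesis. Same-numbered libraries deviated together with correlations of -0.13, 0.13 and 0.13, and Rcm 1 went best with S-Rcm 12 h 2 (0.17), so that the numbers were not taken to pair libraries. Sign turned, with 1 library left out, for the SRF and YAP serum-response median log2 fold change (-0.0489 to 0.0843), the medians of selenoproteins (-0.116 to 0.0154), ferroptosis regulators (-0.0699 to 0.0258) and the IGF system (-0.0324 to 0.0846, and -0.0855 with that minimum), and Srebf2 (-0.197 to 0.0032). The cause of these shifts was not tested. Of the recomputed fold changes of the 73 single genes, 859 kept direction and side of the threshold, 211 fell short of it, 15 newly passed and 1 (Srebf2) turned sign. Of 24 list medians 4 turned sign in some alternative. In the 22 lists other than cholesterol synthesis and interferon-stimulated, 27 recomputed medians shifted beyond the spread between replicates with the same sign. In these 22 lists 61 recomputed DEG counts moved by over 1.5 times. The cholesterol synthesis and interferon-stimulated counts, given above, are not in that tally. Summing near-identical copies, chosen after the data were seen, gave 123 DEGs. With 3 libraries a group, genes of a few CPM had wide errors, and changes near the thresholds could not be settled.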
